A study of Mus musculus with 132 samples.

Results

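The amino acid transporter genes described here were the genes of the deposited count table whose symbols belong to the solute carrier families Slc1a, Slc3a, Slc6a, Slc7a, Slc36a and Slc38a, without pseudogenes. The rule took 64 of the 32245 genes in the table. Of these, 4 are named for lying opposite a carrier gene (Slc7a6os, Slc36a1os, Slc36a3os and Slc6a19os) and 3 carry monoamines, not amino acids (Slc6a2, Slc6a3 and Slc6a4), and they were kept because the rule takes them.

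Single cells were picked from mouse preimplantation embryos whose parents were C57BL/6 x DBA F1 animals (C57BL/6NCrl x DBA/2NHsd in the study's methods). The embryos were flushed at the 2-cell stage and cultured in KSOM medium with a mimic of the microRNA miR-381-3p, or with a scrambled mimic as the control. Per the study, the concentration was 10 µM for the embryos sequenced at the 8-cell stage and 5 µM for those at the 32-cell stage, in mimic and control alike, so that stage and concentration change together and cannot be told apart in any comparison of stages. Cells were taken at the 8-cell stage (embryonic day 2.5; 30 control and 24 mimic cells) and at the 32-cell stage (day 3.5; 39 control and 39 mimic cells), with 3 to 5 embryos behind each group, and full-length Smart-seq2 libraries were made from polyadenylated RNA. The labels do not give a cell's embryo, so each of the 4 groups was treated as 1 sample, and no p-value was computed. Differences were read from levels pooled over the cells of a group, in counts per 1000000 counts without mitochondrial genes (CPM), and a gene was called higher or lower where it reached 20 CPM on at least 1 side and the difference of log2(CPM + 1) was 1 or more, about 2-fold. The 95% intervals given are exact Poisson intervals of the pooled count. They cover counting error alone (without molecular identifiers, several reads may stem from 1 molecule), and they leave out the spread between embryos.

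The cells held between 544866 and 3461022 counts each. A count of 0 in a whole group allowed a level of up to 0.0527 to 0.0971 CPM (3 counts of the pooled total), depending on the group. At the 32-cell stage, transcripts of Y-linked genes were above Xist, the RNA that coats the inactive X chromosome, in 39 of 39 control cells, and Xist was above them in 39 of 39 mimic cells. Treatment and embryo sex therefore cannot be told apart at that stage. At the 8-cell stage, Xist was the higher in 23 of 30 control and 14 of 24 mimic cells. The makeup by embryo sex therefore also differed between the stages in each treatment, and its part in the stage comparisons was not tested. The cell numbers in the titles fell into runs, 2 in the 32-cell control (24 and 15 cells) and 3 in the 32-cell mimic (18, 12 and 9 cells), and levels were also read run by run, without a label that says what a run is. Of 9 markers of cumulus and granulosa cells, 6 or 7 had no count in any of the 4 groups, and the summed level of the 9 was 2.40 to 17.3 CPM.

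Amino acids enter embryonic cells through carriers that differ in substrate and driving ion. Slc1 proteins take up glutamate and aspartate or exchange small neutral amino acids, Slc6 proteins use the sodium and chloride gradients for glycine, taurine, creatine and GABA among others, and Slc38 proteins carry neutral amino acids with sodium. Most Slc7 light chains reach the membrane only when bound to the heavy chain Slc3a2 (CD98), while the cationic carriers Slc7a1 and Slc7a2 work alone. In cleaving embryos these carriers supply protein synthesis, and taurine and glycine also serve as osmolytes that set cell volume.

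The mimic copies miR-381-3p, which is encoded on chromosome 12 (109726870 to 109726891, plus strand, GRCm38). Its mature sequence is shown because bases 2 to 8, the seed (in capitals), define the sites looked for in the carrier genes, and below it stand the sites in the 3′ untranslated regions of members at 20 CPM or more in some group. Capitals in the sites mark the match to the seed (CTTGTAT), with the A opposite base 1 of the microRNA where it makes an 8-base site (CTTGTATA). In the annotated 3′ untranslated regions the sites begin at bases 1614 and 2271 of 5774 in Slc7a2, 2023 of 2671 in Slc6a8, 2156 of 5030 in Slc7a1, 750 of 2086 in Slc1a4, 793 of 7085 in Slc38a9, and 1626 and 2585 of 2735 in Slc38a2. Sequences are from RefSeq for the microRNA and from the GENCODE transcripts of GRCm38 for the sites.
mmu-miR-381-3p: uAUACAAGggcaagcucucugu
Slc7a2, site 1: catgaattaacCTTGTATAaataattaaat
Slc7a2, site 2: aatactttactCTTGTATAatattctccaa
Slc6a8: tgagacttctgCTTGTATAtttctaaaaag
Slc7a1: tcagccagcagCTTGTATcccaccaagggg
Slc1a4: tgcactgtggaCTTGTATtggttggtcagt
Slc38a9: ctatataaagcCTTGTATcaagacactaaa
Slc38a2, site 1: tttgttacagtCTTGTATtgtatatgtgac
Slc38a2, site 2: aaagaggactcCTTGTATgtatatagtgta

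At least 1 site was found in 12 of the 61 members with an annotated 3′ untranslated region (19.7%), against 11.5% of 20775 genes. An 8-base site was found in 5 members (8.2%), against 3.11% of genes. The members' untranslated regions were longer, with a median of 1649 bases against 1091. Beside the 6 genes above, sites lay in Slc7a11, Slc7a13, Slc6a11, Slc6a5, Slc7a15 and Slc7a3, all under 20 CPM in the 4 groups. How the genes with sites compared between mimic and control is given with that comparison.

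A minority of the family made up most of its transcripts. At 20 CPM or more in at least 1 group stood 21 members, and 8 of them reached that level in all 4 groups (Slc6a6, Slc1a5, Slc7a6, Slc7a6os, Slc38a10, Slc3a2, Slc1a1 and Slc6a8). Of the other 43, 18 reached 1 CPM in some group, 25 did not, and 15 of those 25 had no count in any cell. Summed over the 64 members, the level was 2687, 2428, 2537 and 2767 CPM in the 8-cell control, 8-cell mimic, 32-cell control and 32-cell mimic, so that the whole stayed within a narrow range while its makeup differed. The 5 leading genes held 87.8% of it in the 8-cell control and 65.7% in the 32-cell control, and the mimic groups were within 3 percentage points of these. A cell had counts for a median of 12, 13, 16 and 20 members in the same order of groups.

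**Figure D1:**
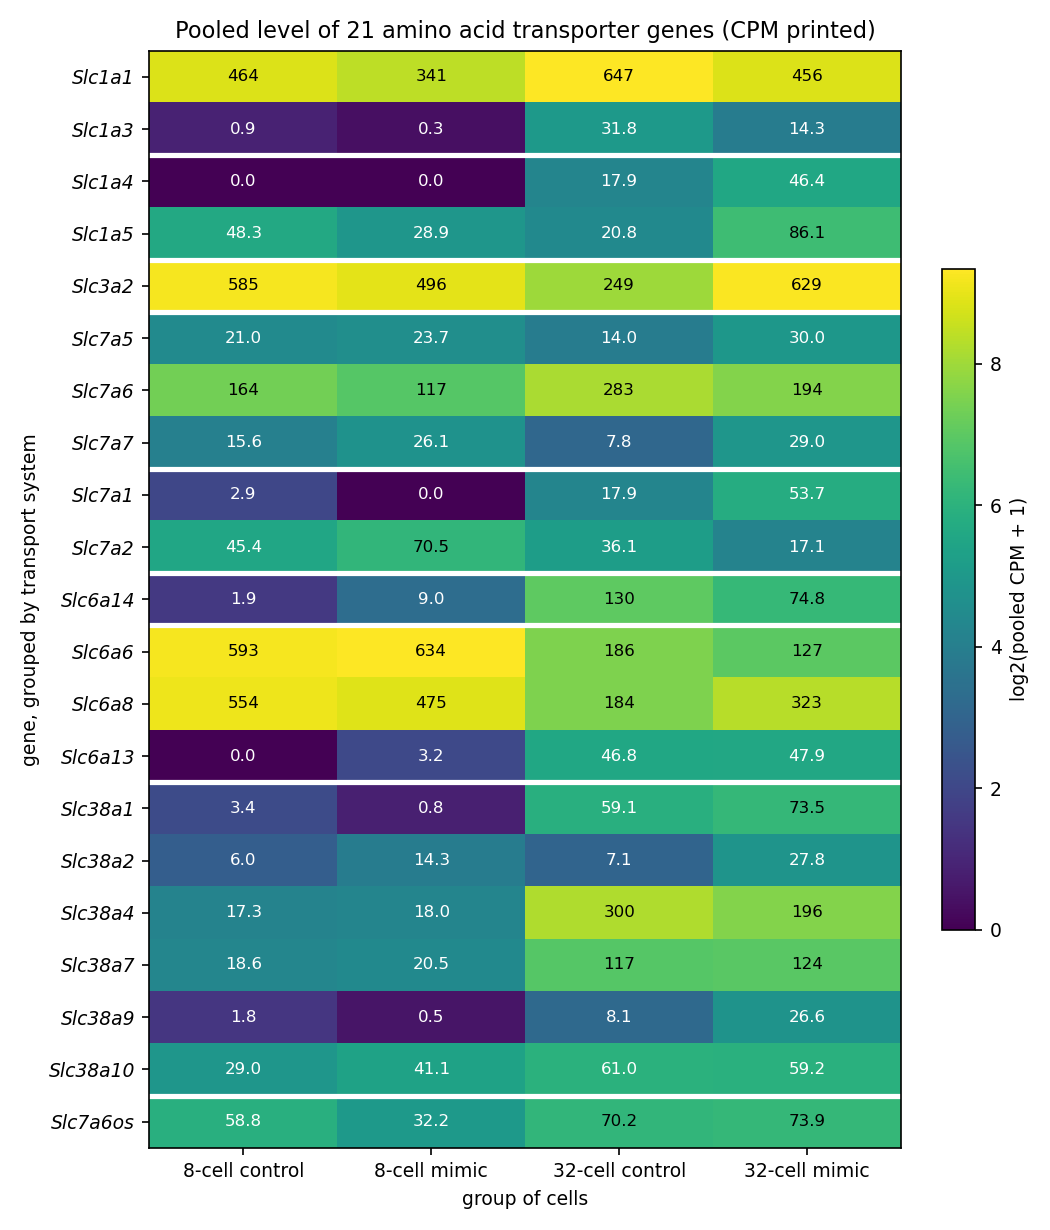
Pooled level of the 21 members at 20 CPM or more in at least 1 group, as log2(CPM + 1) by colour and CPM in print, with genes in rows by transport system (white lines) and the 4 groups in columns. Slc6a6 and Slc6a8 stand highest at the 8-cell stage, the Slc38 carriers and Slc6a14 at the 32-cell stage, and Slc3a2 is lowest in the 32-cell control.

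Per kilobase of exon, the scale on which genes can be set against each other, the order at the 8-cell stage was Slc3a2, Slc6a8, Slc6a6, Slc1a1 and Slc7a6 in both groups, from 165.8 down to 35.8 CPM per kilobase in the control and from 140 down to 25.6 in the mimic. In the 32-cell control the leading places were held by Slc1a1 (78.4 CPM per kilobase), Slc3a2 (70.6), Slc38a4 (70.5) and Slc7a6 (62.0), and Slc3a2 and Slc38a4 cannot be ordered. In the 32-cell mimic Slc3a2 led with 178, followed by Slc6a8 (62.0), Slc1a1 (55.2) and Slc38a4 (46.0).

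The first question was how the carriers differ between the 8-cell and the 32-cell stage in control embryos. The taurine and creatine carriers Slc6a6 and Slc6a8, the heavy chain Slc3a2 and the exchanger Slc1a5 were lower at the later stage, and Slc38a1, Slc38a4, Slc38a7, Slc38a10, Slc6a13, Slc6a14 and Slc1a3 were higher. Of 16 members at 20 CPM, 7 were higher and 4 lower. Over all 7469 genes at that level, 30% were higher and 20.1% lower, so these shares were not far from those of all genes. Of the higher members only Slc38a10 was at 20 CPM or more at both stages. The others were under it in the 8-cell control and entered through the 32-cell group alone, so nothing is read from their common direction. The median difference was 0.63 for the members and 0.20 for all genes on the log2(CPM + 1) scale.

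Slc6a6 (chromosome 6, 91684053 to 91759066), the taurine transporter, was the member with the highest pooled CPM at the 8-cell stage. In the control run of 28 cells its counting interval (593.1 to 609.7 CPM) overlapped that of Slc3a2 (585.5 to 601.9), so they cannot be ordered there. The level of Slc6a6 in control cells at that stage ran from 162.8 through a median of 594 to 1289 CPM, and at the 32-cell stage from 0 through 157.4 to 634. The ranges overlapped, but the median cell of the later stage lay below the lowest cell of the earlier one. Pooled, 593 CPM stood against 186, a 3.19-fold lower level at the 32-cell stage. Slc6a8 (X chromosome, 73673150 to 73682502), the creatine transporter, ran from 239 through 536 to 1180 CPM at the 8-cell stage and from 0 through 150 to 823 at the 32-cell stage, 3.01-fold lower when pooled. In the same family Slc6a13 (GAT2), which takes up GABA and taurine, went the other way: it had no count in 30 8-cell control cells and was found in 24 of 39 32-cell control cells at a pooled 46.8 CPM, at least 573-fold above the limit set by 3 counts in the 8-cell group.

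The Slc38 carriers of neutral amino acids made up the largest group of higher members, though Slc38a1, Slc38a4 and Slc38a7 were under 20 CPM in the 8-cell control. Slc38a4 (chromosome 15, 96994820 to 97055956), of the system A family, was found in 9 of 30 8-cell control cells at a pooled 17.3 CPM and in 39 of 39 32-cell control cells, where it ran from 29.2 through 317 to 885 CPM. The pooled 32-cell level of 300.4 CPM (95% interval 295.9 to 304.9) was 17.4-fold the 8-cell one. Slc38a7, which lies on lysosomes and exports glutamine and asparagine, stood at 18.6 and 116.7 CPM, 6.28-fold higher at the 32-cell stage. Slc38a1, another glutamine carrier of the cell surface, stood at 3.38 and 59.1 CPM, and Slc38a10 at 28.99 and 61.0. The difference of Slc38a10, 1.05 on the log2 scale, stayed past 2-fold in only 4 of 10 alternatives and fell to 0.72 without the control run of 24 cells. Summed over its 11 members, the group stood at 86.3 CPM in the 8-cell control and 557 in the 32-cell control.

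A pair of carriers that scarcely showed at the 8-cell stage completed the higher members. Slc6a14 (X chromosome, 21714896 to 21742355), a carrier of broad substrate range for neutral and cationic amino acids, had 1.91 CPM in 3 of 30 cells and 129.5 CPM in 21 of 39 cells, 68-fold higher (95% interval 53.7 to 87.3). Slc1a3 (chromosome 15, 8634124 to 8710764), the glutamate transporter GLAST, had 0.871 CPM in 2 cells and 31.8 CPM in 20 cells. Slc1a1 (chromosome 19, 28835049 to 28913960), the other glutamate and aspartate carrier, was high at both stages: it ran from 130 through 477 to 769 CPM at the 8-cell and from 94.1 through 639 to 1339 at the 32-cell stage, a 1.40-fold pooled difference that was not called.

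Among carriers that work with a heavy chain, Slc3a2 (chromosome 19, 8706882 to 8723369) was lower at the 32-cell control stage. Its cells ran from 231 through 595 to 981 CPM at the 8-cell stage and from 0 through 240 to 562 at the 32-cell stage, 2.35-fold lower when pooled. Its light chain Slc7a6 (y+LAT2) stood at 163.7 and 283 CPM, a 1.73-fold difference in the other direction. The heavy chain over the sum of the 10 light-chain genes, all per kilobase, gave a ratio of 3.55 in the 8-cell control and 1.01 in the 32-cell control. Slc1a5 (ASCT2; chromosome 7, 16781340 to 16798274), an exchanger of glutamine and other neutral amino acids, stood at 48.3 and 20.8 CPM, 2.32-fold lower. This call stayed past 2-fold in 6 of 10 alternatives, and the 32-cell control runs stood at 11.9 and 34.1 CPM, so that the log2 difference of -1.18 became -0.49 without the run of 24 cells and -1.93 without the run of 15.

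Among mimic cells the same stages gave 10 higher and 2 lower members of 20 at 20 CPM, against 29.1% higher and 18.8% lower over 7594 genes. The median difference was 1.04 for the members and 0.20 for all genes. Slc6a6 ran from 51.8 through 620 to 1139 CPM at the 8-cell and from 0 through 109.5 to 378 at the 32-cell stage, 4.98-fold lower when pooled. The Slc38 carriers Slc38a1, Slc38a4, Slc38a7 and Slc38a9 were higher, as were Slc6a13 and Slc6a14. Slc38a4 was at 18.02 and 196 CPM. Slc7a1 and Slc1a4 had no count in any of the 24 8-cell mimic cells and stood at 53.7 and 46.4 CPM at the 32-cell stage, at least 553-fold and 478-fold over the limit that 3 counts set. Slc7a2, a carrier of arginine and lysine, was lower, with 70.5 CPM against 17.1. Slc1a5 was 2.98-fold higher at the later stage (28.9 and 86.1 CPM), and Slc7a6os, the last of the 10, stood at 32.3 and 73.9 CPM, past 2-fold in 6 of 9 alternatives. Of the higher members, Slc1a4, Slc38a1, Slc38a4, Slc38a9, Slc6a13, Slc6a14 and Slc7a1 were under 20 CPM in the 8-cell mimic. They entered through the 32-cell group alone. The control and mimic stage comparisons rest on separate cells, and the difference between them was not tested.

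The second question was how mimic and control cells of the same stage differ in these carriers. At the 8-cell stage 0 of 12 members at 20 CPM were past 2-fold in either direction, against 6.96% higher and 6.09% lower of 6570 genes. Among cells with Xist above Y-linked transcripts alone (14 mimic and 23 control cells), 4 of 14 members were higher (Slc6a9, Slc6a15, Slc38a10 and Slc7a7) and 0 lower, where 8.98% of all genes were higher. The differences ran from -0.85 for Slc7a6os, which encodes a protein that is not a carrier, to 0.71 for Slc7a7, a light chain that exports cationic amino acids. For Slc7a6os the cells ran from 0 through 54.3 to 227 CPM in the control and from 0 through 15.2 to 125 in the mimic, with wide overlap. The leading genes were close: Slc6a6 stood at 593 and 634 CPM, Slc3a2 at 585 and 496, and Slc6a8 at 554 and 475. A median of -0.06 for the members stood beside 0.03 for all genes.

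At the 32-cell stage the mimic cells held higher levels of 8 members and lower levels of 2 of the 21 at 20 CPM, where 6.87% of 7307 genes were higher and 5.36% lower. The higher ones were Slc3a2, Slc1a5, Slc1a4, Slc7a1, Slc7a5, Slc7a7, Slc38a2 and Slc38a9, and the lower ones Slc1a3 and Slc7a2. The median over the 21 was 0.09, near the 0.01 of all genes, since the remaining members lay on both sides of 0. Of the 8 higher genes, 6 were under 20 CPM in the control and entered through the mimic group alone, and both lower genes entered through the control alone. With the filter set on the mean of both groups, a rule added after seeing the data, 5 of 18 were higher (Slc3a2, Slc1a5, Slc1a4, Slc7a1 and Slc7a5) and 2 lower, against 5.31% and 4.21% of all genes.

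Slc3a2, the heavy chain that light chains need to reach the membrane, showed the widest separation of cells. Control cells ran from 0 through 240 to 562 CPM and mimic cells from 49.0 through 598 to 1541. The ranges overlapped, yet 37 of 39 mimic cells lay above the control median, 22 lay above the highest control cell, and 0 of 39 control cells reached the mimic median. Pooled, 249 CPM (95% interval 245.1 to 253.3) stood against 629 (622.5 to 636.0), 2.53-fold. The mimic level was near those of the 8-cell stage, 585 CPM in control and 496 in mimic. The ratio of heavy chain to light chains per kilobase was 2.88 in the 32-cell mimic, beside 1.01 in its control and 3.55 and 3.47 at the 8-cell stage.

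**Figure D2:**
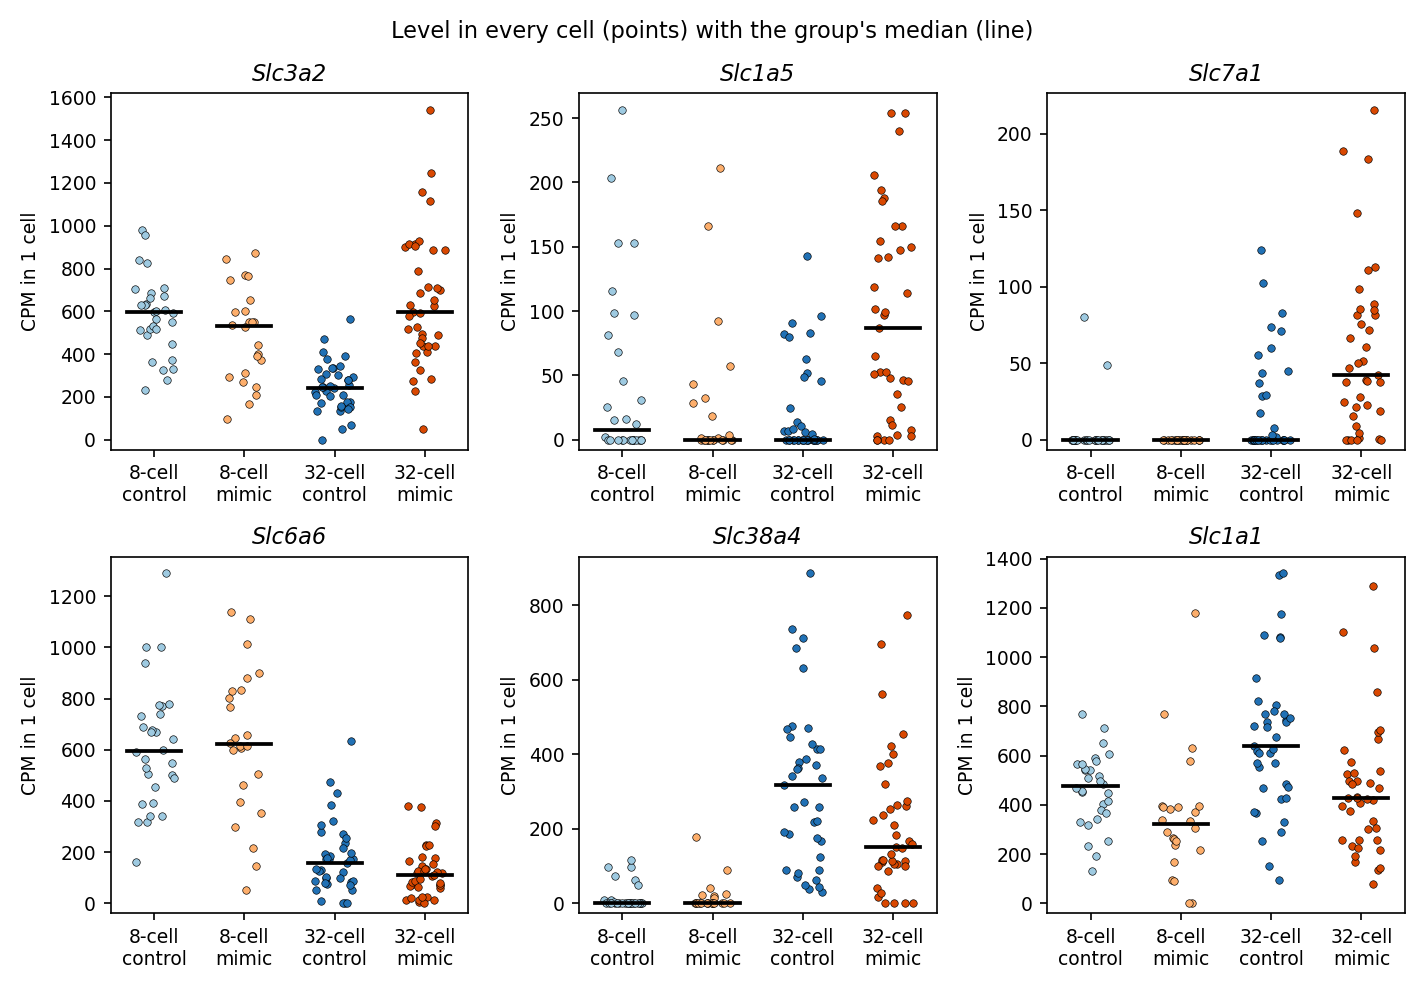
CPM in every cell (points) for 6 members in the 4 groups, with the median cell as a line; each panel has its own linear axis from 0. Slc3a2 and Slc1a5 stand higher in 32-cell mimic than in 32-cell control cells (pooled 629 against 249 and 86.1 against 20.8 CPM), Slc6a6 is highest at the 8-cell stage and Slc38a4 at the 32-cell stage.

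Of its light chains, Slc7a5 (LAT1; chromosome 8, 121881150 to 121907694), which exchanges glutamine for leucine and other large neutral amino acids, had 14.04 CPM in 25 of 39 control cells and 30.01 CPM in 37 of 39 mimic cells, 2.14-fold higher. Slc7a7 (chromosome 14, 54369442 to 54417780) had 7.77 CPM in 7 control cells and 29 CPM in 27 mimic cells, 3.73-fold higher. Both overlap a gene on the other strand (Gm20388 and Oxa1l), and in libraries that do not keep strand the reads of such a pair cannot be told apart where exons coincide. Other called members that overlap such a gene include Slc7a2, Slc38a9, Slc38a10 and Slc6a6. Slc7a6, the light chain with the highest level, was at 283 CPM in the control and 194 in the mimic, a 1.46-fold lower level in the mimic that was not called.

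The neutral amino acid exchangers were both higher. Slc1a5 ran from 0 through 0 to 143.1 CPM in control cells and from 0 through 87.2 to 254 in mimic cells, with counts in 19 and 35 of 39 cells. The groups overlapped at the bottom of the range, and 12 mimic cells lay above the highest control cell. Pooled levels of 20.8 and 86.1 CPM gave 4.13-fold (95% interval 3.88 to 4.41). Slc1a4 (ASCT1; chromosome 11, 20302180 to 20332713), which exchanges alanine, serine and cysteine, had 17.9 CPM in 7 control cells and 46.4 CPM in 21 mimic cells. In the control 1 cell held 36.6% of its counts.

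The carriers of arginine and lysine went in opposite directions. Slc7a1 (CAT-1; chromosome 5, 148327410 to 148399904) ran from 0 through 0 to 124 CPM in control cells and from 0 through 42.4 to 215 in mimic cells, with counts in 16 and 34 of 39 cells and a pooled 17.9 against 53.7 CPM, 3.00-fold. Slc7a2 (CAT-2; chromosome 8, 40862396 to 40922308) stood at 36.1 CPM in 19 control cells and 17.1 CPM in 14 mimic cells, 2.11-fold lower, and 0 mimic cells lay above the highest control cell. Its direction was the opposite in TE-like cells alone (a log2 difference of 1.45 at low levels, given with the classes), and the class that held most of it in the control, the ICM-like one, had 25 of 39 control cells and 12 of 39 mimic cells. Summed over its 5 genes, the cationic group stood at 57.6 CPM in the control and 71.5 in the mimic.

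Slc38a2 (SNAT2; chromosome 15, 96687392 to 96699730), the sodium-coupled carrier of system A that is known to be induced when amino acids run short, had 7.14 CPM in 10 control cells and 27.8 CPM in 17 mimic cells, 3.89-fold higher, and 1 mimic cell at 407 CPM held 23% of the group's counts. Slc38a9 (chromosome 13, 112660751 to 112738749), a lysosomal sensor of arginine, had 8.10 CPM in 7 cells and 26.6 CPM in 18 cells. The carriers of that family with higher levels differed less: Slc38a4 stood at 300.4 and 196 CPM, Slc38a1 at 59.1 and 73.5, Slc38a7 at 116.7 and 124, and Slc38a10 at 61.0 and 59.2. Slc1a3, the glutamate carrier, had 31.8 CPM in 20 control cells and 14.3 CPM in 15 mimic cells, 2.23-fold lower (in TE-like cells alone its log2 difference was 1.67, also at low levels), while Slc1a1 was at 647 and 456 CPM.

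On the X chromosome lie Slc6a8 and Slc6a14, the only members at 20 CPM there. Slc6a8 stood at 184 CPM in the control and 323 in the mimic, 1.75-fold higher, and Slc6a14 at 129.5 and 74.8 CPM, 1.73-fold lower. The median difference of 213 X-linked genes was 0.40, beside 0.002 for 7048 autosomal genes. The 8 higher and 2 lower members are autosomal. The part of embryo sex in their levels cannot be told apart from that of the mimic.

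The 8 higher genes were also summed, as a description, since they were chosen from this comparison. They came to 343 CPM in the 32-cell control and 929 in the 32-cell mimic, beside 681 and 589 in the 8-cell control and mimic. A control cell had counts for a median of 3 of the 8 genes and a mimic cell for 6.

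Levels differed between runs of cell numbers within a treatment, in places as much as between treatments. For Slc3a2 the control runs stood at 230 and 278 CPM and the mimic runs at 846, 487 and 507, so that all mimic runs were above all control runs. Slc1a5 showed the same order, with 11.9 and 34.1 against 132.1, 62.4 and 53.0 CPM. Slc7a1 did not: its control runs stood at 4.47 and 37.8 CPM and its mimic runs at 81.7, 40.03 and 32.6. Slc1a4 stood at 2.67 and 40.5 CPM in control runs and at 71.4, 14.3 and 49.4 in mimic runs, and Slc38a2 fell as low as 2.80 CPM in 1 mimic run. Mimic runs were all above control runs for 5 of the 21 members (Slc3a2, Slc1a5, Slc7a5, Slc7a7 and Slc6a8), against 16.8% of all genes, and all below for 4 (Slc6a6, Slc7a2, Slc1a3 and Slc1a1), against 16.5%. Without the mimic run of 18 cells, 3 members were higher (Slc1a5, Slc7a7 and Slc38a9) and 3 lower, and Slc3a2 stood just under the threshold at 0.99. Without the control run of 24 cells, 4 of the 8 fell under 2-fold, with log2 differences of 0.19 for Slc1a4, 0.49 for Slc7a1, 0.60 for Slc38a9 and 0.86 for Slc7a5. Slc38a1 and Slc6a8 passed it there, so that 6 members were higher and 3 lower. The share of all genes without a run is not given, so the counts without a run are not set against all genes. Slc1a5 and Slc7a7 were the only members of the 8 past 2-fold without each of the 5 runs in turn. Of the lower members, Slc7a2 stood at -0.59 without the mimic run of 9 cells and Slc1a3 at -0.70 without that of 12. The mimic run of 18 cells held the highest level of Slc3a2, Slc1a5, Slc7a1, Slc1a4, Slc7a5 and Slc38a2.

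**Figure D3:**
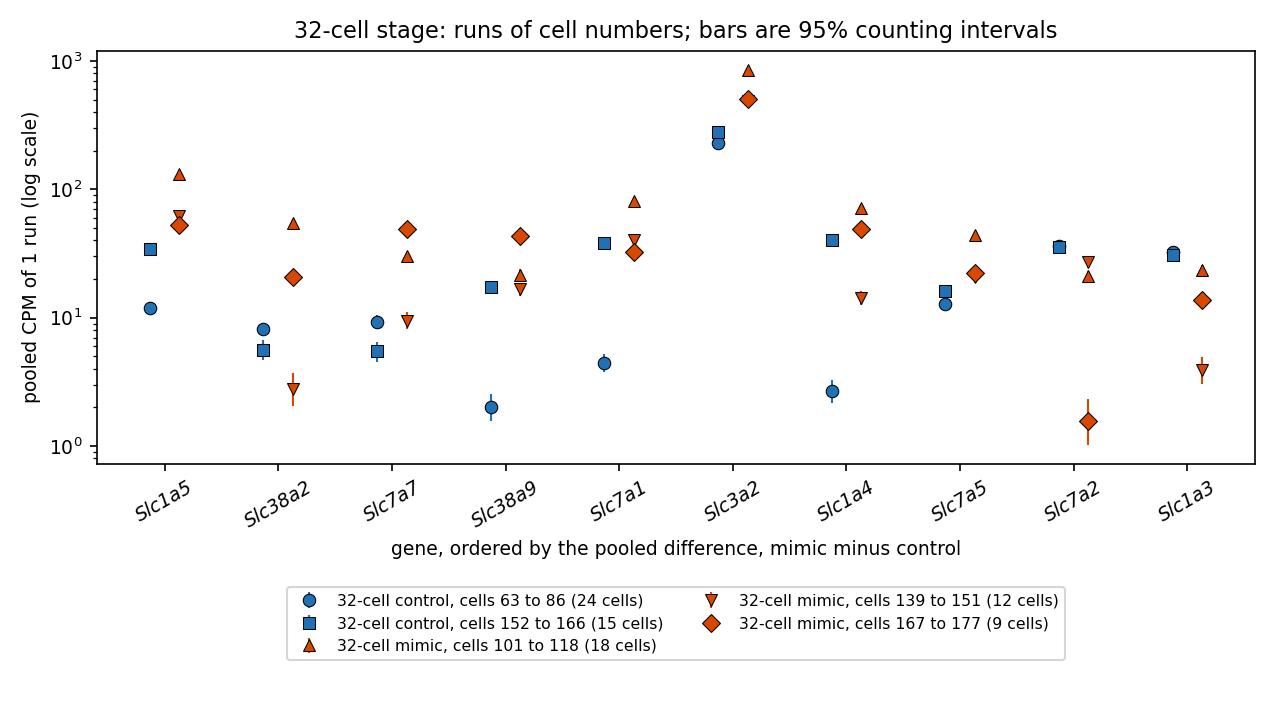
Pooled CPM on a log scale of each run of cell numbers at the 32-cell stage (blue control, orange mimic, shape by run) for the 10 members called between mimic and control, ordered by their pooled difference; bars are 95% counting intervals. All 3 mimic runs lie above both control runs for Slc3a2, Slc1a5, Slc7a5 and, narrowly, Slc7a7, while the runs overlap for Slc7a1, Slc1a4, Slc38a2 and Slc38a9.

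Of the 6 members at 20 CPM with a miR-381-3p site, the 4 with 7-base sites alone (Slc7a1, Slc1a4, Slc38a9 and Slc38a2) were among the 8 that were higher in 32-cell mimic cells. All 4 were under 20 CPM in the control and entered through the mimic group, where they are high, so nothing is read from their common direction. The pair with 8-base sites went apart, Slc7a2 with its 2 sites at -1.04 and Slc6a8 at 0.81. Over all genes the medians were -0.005 for 273 genes with an 8-base site, -0.03 for 736 with a 7-base site alone and 0.01 for 6169 with neither.

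Many of the higher carriers, Slc3a2, Slc7a5, Slc7a1, Slc1a4, Slc1a5 and Slc38a2 among them, are known as genes that ATF4, the transcription factor of the amino acid shortage response, can induce. A list of 19 genes around ATF4 is given beside them, and the part of ATF4 in the carriers' levels was not tested. In 32-cell mimic against control cells, 8 of its 15 genes at 20 CPM were higher and 0 lower, against 6.87% and 5.36% of all genes, and 5 of the 8 were under 20 CPM in the control and entered through the mimic alone. As for the carriers, embryo sex and the mimic cannot be told apart here. Trib3, an inhibitor of that response, stood at 12 and 114.5 CPM, Pycr1, an enzyme of proline synthesis, at 6.63 and 59.1, and Asns, asparagine synthetase, at 217 and 482. Atf4 itself stood at 122 and 236 CPM, under 2-fold. Within the classes described below, Asns was 1.43-fold higher in mimic ICM-like cells and 13.5-fold higher in mimic TE-like cells. Atf4 was 1.63-fold and 2.4-fold higher, so that both genes were called in TE-like cells alone. The cystine carrier Slc7a11, a classical member of the response, was at 0.176 and 0.470 CPM. At the 8-cell stage 1 of 11 listed genes was higher in the mimic (Asns) and 0 lower, against 6.96% and 6.09% of all genes. A second list of 17 carriers outside the rule, 16 of them in the table, gave 1 higher (the lysosomal cystine exporter Ctns) and 3 lower of 8 at 20 CPM at the 32-cell stage (the mitochondrial aspartate and glutamate exchanger Slc25a13, Slc43a3, which is known to carry purine bases, and Slc15a2, which carries small peptides), beside the same 6.87% and 5.36%.

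The C/EBP-ATF response element, searched as TGATGNAA on both strands of the promoter windows (250 bases before to 50 after the start, RefSeq, GRCm38.p6), occurred in at least 1 window of 4 of the 47 member genes that have one (8.51%), against 4.51% of 27025 genes counted the same way. Among the 8 higher genes Slc1a4 and Slc7a7 held it, and their matches are shown, read along the motif's own strand, with the match in capitals and positions counted from the start base as 0. The windows are chr11:20332664-20332963 for Slc1a4 and chr14:54417895-54418194 for Slc7a7, both genes on the minus strand. The others were Slc7a11, with matches at -66 and -47, and Slc6a21, at -28.
Slc1a4, position -4: caggctggagaTGATGCAAcgcaggaggca
Slc7a7, position -141: ccgcttgggctTGATGAAAggttcactggg
Slc7a7, position -1: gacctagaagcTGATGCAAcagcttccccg

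A further question was whether carriers differ between the first cell lineages. Cells of the 32-cell stage were clustered with all members and all marker genes set aside, and the classes were then named by 9 inner cell mass and 9 trophectoderm genes, each of them higher in the class it marks. The control held 25 ICM-like and 14 TE-like cells (64.1% ICM-like, exact binomial 95% interval 47.2 to 78.8) and the mimic 12 and 27 (30.8%, 17 to 47.6). When cells were placed by marker score instead, the mimic had 17 ICM-like cells (43.6%).

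In control cells, 5 of 18 members at 20 CPM were higher in TE-like cells and 6 lower, against 10.1% and 11.9% of 7239 genes. The higher ones were Slc6a14, Slc6a13, Slc6a8, Slc38a1 and Slc6a6. Slc6a14 had counts in 13 of 14 TE-like cells, with a median of 222 and a highest cell of 635 CPM, and in 8 of 25 ICM-like cells, with a median of 0 and a highest of 164.2. Pooled, 270.7 CPM stood against 24.02, 11.3-fold. Slc6a13 was 5.01-fold higher (86.3 and 17.2 CPM), Slc6a8 3.35-fold (308 and 91.9), Slc38a1 2.18-fold (85.6 and 39.3) and Slc6a6 2.06-fold (264 and 128). Of the 5, Slc6a13 alone was under 20 CPM in ICM-like cells and entered through the TE-like class.

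The members lower in TE-like cells were Slc1a3, Slc7a2, Slc38a4, Slc1a5, Slc7a1 and Slc6a15. Slc1a3 stood at 2.92 CPM in TE-like and 53.4 CPM in ICM-like control cells, 18.3-fold lower, and had counts in 3 of 14 and 17 of 25 cells. Slc7a2 stood at 5.22 and 59.3 CPM, 11.4-fold lower, also with counts in 3 and 16 cells. Slc38a4 was found in every control cell of both classes, at 181.9 and 389 CPM. It was the only one of the 6 at 20 CPM or more in both classes, and the others entered through the ICM-like class. Slc1a5 (9.45 and 29.3 CPM), Slc7a1 (9.74 and 23.96) and Slc6a15, a carrier of branched-chain amino acids and proline (8.75 and 22.7), completed the 6. The calls of Slc38a1, Slc38a4 and Slc7a1 each stayed past 2-fold in 5 of 8 alternatives. Those of Slc1a5 and Slc6a15 rest on the control run of 15 cells: without it their log2 differences of -1.54 and -1.28 became -0.003 and -0.07. The heavy chain was at 298 CPM in TE-like and 213 in ICM-like cells and was not called.

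Mimic cells gave 4 higher and 3 lower of 22 members, against 8.66% and 8.11% of 7424 genes. Slc6a14 (97.0 and 18.5 CPM), Slc6a13 (62.1 and 11.9) and Slc38a1 (88.2 and 36.2) were again higher in TE-like cells, with Slc7a7 (34.1 and 16.1). Of these, only Slc38a1 was at 20 CPM or more in both classes. Slc7a8, Slc38a9 and Slc1a4 were lower, and in Slc7a8 1 ICM-like cell held 72.4% of the class's counts. The call of Slc7a7 stayed past 2-fold in 4 of 9 alternatives, and those of Slc38a9 and Slc1a4 in 6 of 9 each. Slc7a8 stood at -0.48 without the mimic run of 12 cells. Slc1a3 and Slc7a2, far apart between the classes of the control, differed by -0.84 and -0.32 on the log2 scale in the mimic. That contrast between treatments was not tested.

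**Figure D4:**
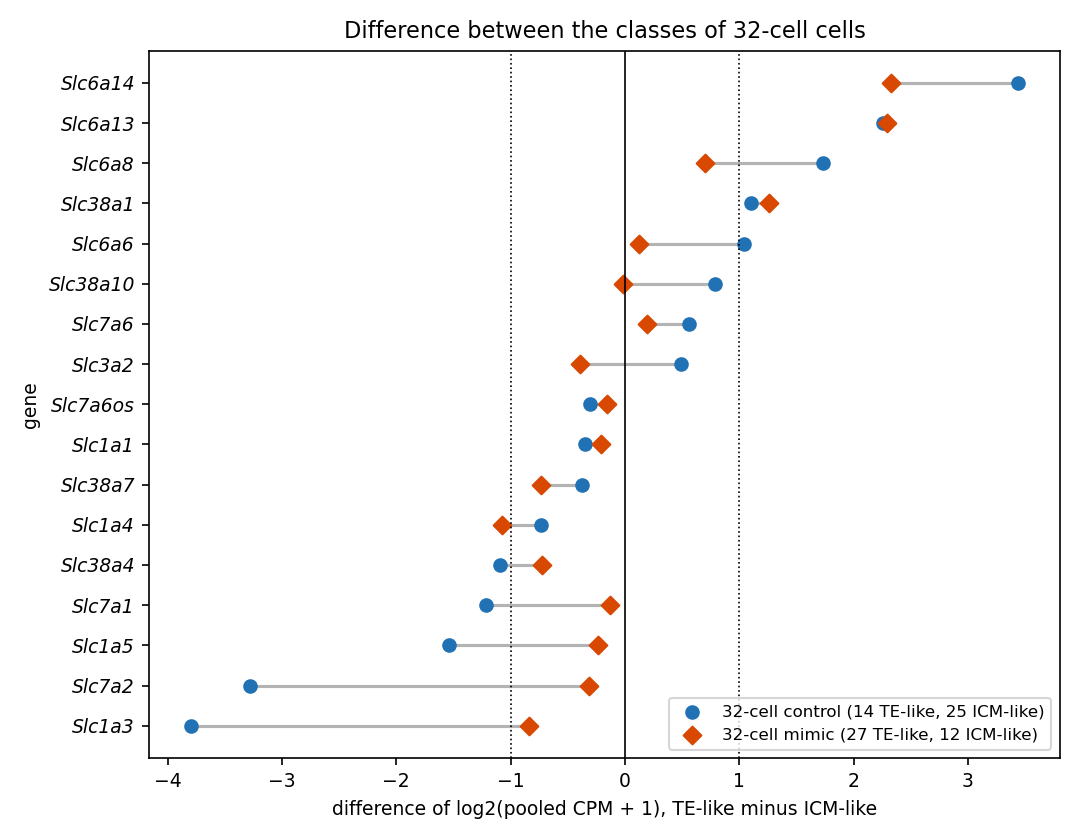
Difference of log2(pooled CPM + 1) between TE-like and ICM-like cells of the 32-cell stage in control (blue circles) and mimic (orange diamonds) for the 17 members at 20 CPM in both comparisons; dotted lines mark 1 and -1. Slc6a14, Slc6a13 and Slc38a1 lie past 1 in both, and Slc1a3 and Slc7a2 lie past -3 in the control and between -1 and 0 in the mimic.

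Since the classes had different shares, mimic and control were also compared within each. The TE-like class was less alike between treatments than the ICM-like one in its markers. The 9 trophectoderm genes summed to 10890 CPM in control TE-like cells (8931 in the lowest cell) and to 7336 in mimic ones (858 in the lowest), and 18 of the 27 mimic cells lay below the lowest control cell, 9 of them below the highest control ICM-like cell (4534 CPM). The 9 inner cell mass genes summed to 549.9 CPM in control and 791 in mimic TE-like cells. In ICM-like cells the inner cell mass sums were 2148 and 2138 CPM and the trophectoderm sums 2237 and 1766. By marker score, 6 of the 27 mimic TE-like cells were ICM-like. The part of these marker levels in the differences within TE-like cells was not tested. In ICM-like cells 8 members were higher and 2 lower of 21, against 10.5% and 9.63% of 7370 genes. In TE-like cells 6 were higher and 2 lower of 18, against 11.9% and 7.79% of 7334 genes. Higher in both were Slc1a4, Slc1a5, Slc38a2 and Slc7a1. In control TE-like cells all of these were under 20 CPM (12.66, 9.45, 0.657 and 9.74). They entered there through the mimic alone, so nothing is read from their common direction in that class. In control ICM-like cells only Slc38a2 among them was under 20 CPM (11.98). The mimic cell with 407 CPM of Slc38a2 was ICM-like, and the call without that cell was not tested. Slc1a5 stood at 29.3 and 96.8 CPM in control and mimic ICM-like cells and at 9.45 and 81.8 in TE-like cells. Slc3a2 ran from 0 through 178 to 562 CPM in control and from 491 through 745 to 1246 in mimic ICM-like cells, 3.57-fold higher when pooled, and only 1 of the 25 control cells reached the lowest mimic one. In TE-like cells it ran from 158.9 through 268 to 473 and from 49.0 through 525 to 1541 CPM, 1.94-fold, just under the threshold at 0.95. Lower in mimic ICM-like cells were Slc7a2 (59.3 and 20.1 CPM) and Slc1a3 (53.4 and 21.4), and lower in mimic TE-like cells were Slc6a14 (270.7 and 97.0) and Slc6a6 (264 and 130). In TE-like cells, where both were scarce, Slc7a2 and Slc1a3 went the other way, at 15.96 and 11.5 CPM in the mimic against 5.22 and 2.92 in the control. In the control both genes were higher in ICM-like than in TE-like cells. With classes set by marker score, an alternative added after seeing the data, they stood at 11.96 and 13 CPM in 22 mimic TE-like cells, still above the 14 control cells. In the same setting Slc3a2, at 1.05, and Slc38a9, at 1.19, joined the members higher in mimic TE-like cells. Slc6a14 stayed lower there (270.7 and 121.2 CPM), while Slc6a6 stood at -0.82. In ICM-like cells by marker score, Slc7a7 joined the higher members and Slc6a14 and Slc6a15 the lower ones. The share of all genes is not given for these classes, so the changes are not set against all genes.

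The members under 20 CPM in all 4 groups left several transport systems at low levels. The second heavy chain, Slc3a1, reached 0.334 CPM at most. None of the 4 proton-coupled Slc36 carriers reached 20 CPM, and the highest was Slc36a1 with 9.84 CPM in the 8-cell mimic, where 1 of 3 cells with a count was at 263 CPM. The monoamine carriers had no count at the 32-cell stage, and Slc6a4, the serotonin transporter, stood at 14.3 CPM in 5 of 30 8-cell control and 2.36 CPM in 1 of 24 mimic cells. Slc6a9 (GLYT1), the glycine carrier, stood at 11.2 and 17.4 CPM in the 8-cell control and mimic and at 0.949 and 8.41 at the 32-cell stage. Slc6a15 at 19.8 CPM in the 8-cell mimic was the nearest to the threshold, and Slc7a8 reached 10.7 CPM in the 32-cell mimic. These 4 genes between 10 and 20 CPM (Slc6a4, Slc6a9, Slc6a15 and Slc7a8) were named after their values were seen.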

How the data were processed

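The authors deposited 1 table of estimated counts per gene and cell. Per the labels and the study's methods, Smart-seq2 reads were aligned with STAR 2.5.1b to GRCm38 (mm10) and counted with RSEM 1.3.0, with the mm10 reference that 10x Genomics distributes (the release is named in the study's methods). All deposited expected counts were whole numbers. All 132 cells passed the study's filter of 3000 genes and 10% mitochondrial counts, and no pair of columns was identical.

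Counts were summed over the cells of a group and divided by their total without the 13 mitochondrial genes, per 1000000. Differences are of log2(CPM + 1), a scale that understates the change of low genes. No count model was run, because a group is 1 sample. Members and lists were chosen with earlier results of these data known. Every member at 20 CPM in a group was described by its level and cells, and members past 2-fold were named, as were lower members that end a transport system or carry a site. Classes came from Seurat 5.3.0 in R 4.3.3 (2000 variable genes, 25 components, resolution 0.8 after 0.6 left the 32-cell cells in 1 cluster); doublets were not called, since cells were picked by hand. Gene positions, exon lengths and sites came from GENCODE M21 on GRCm38, in which all 64 members were matched. The arithmetic of the fold calls was checked on simulated Poisson counts. These had no spread between cells or embryos, so the check says nothing of how firm the calls are. Other steps used Python 3.11.15 and pandas 2.3.3. A share of counts in cells carries an exact Clopper-Pearson interval. Alternatives covered the total, the pooling, the filter, the fold, thinning of each cell to 522178 counts, and leaving out runs of cell numbers.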

Additional observations from a re-analysis of the deposited data

Results flagged for a closer look

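Slc1a5, the glutamine exchanger ASCT2, stood out because its difference between stages had opposite signs in the treatments. From the 8-cell to the 32-cell stage it was lower in control cells (-1.18 on the log2 scale, 48.3 and 20.8 CPM) and higher in mimic cells (1.54, 28.9 and 86.1 CPM). The control difference stayed past 2-fold in 6 of 10 alternatives and ran from -2.31 to -0.49, and the 32-cell control runs of 24 and 15 cells stood at 11.9 and 34.1 CPM. The mimic difference stayed past it in 8 of 9. The stages also differed in concentration, 10 and 5 µM. The contrast between control and mimic was not tested, since each group is 1 sample. At the 32-cell stage the control cells carried Y-linked transcripts and the mimic cells Xist, so that embryo sex and the mimic cannot be told apart, and the part of either was not tested.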

How the results depend on the processing

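Limits come first. Each group is 1 sample of 3 to 5 embryos that the labels do not separate, and reads were counted without molecular identifiers, so nothing here measures the spread between embryos. Pooled levels near 20 CPM rest on few cells: Slc38a9, Slc38a2, Slc1a4 and Slc7a7 had counts in 7 to 10 of 39 32-cell control cells. Sex cannot be told apart from treatment at the 32-cell stage.

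Of 489 recomputed values of the called members, 431 stayed past 2-fold on their side, 56 kept their sign under 2-fold and 2 changed sign. Both were in TE-like cells alone at the 32-cell stage, mimic against control: Slc7a2 at 1.45 and Slc1a3 at 1.67. The counts that moved by over 1.5 times follow, here and in the next paragraph. The share of all genes does not stand beside them, so they show how the calls depend on settings and are not set against all genes. The cause was not tested except where fewer or more genes entered by construction. With a filter of 5 CPM, 11 members were higher and 7 lower between stages in the control, 4 and 1 between 8-cell mimic and control, and 7 and 5 between TE-like and ICM-like mimic cells. With no filter the counts were 15 and 8 (stages, control), 17 and 6 (stages, mimic), 8 and 5 (8-cell mimic), 14 and 4 (32-cell mimic), 10 and 12 (classes, control) and 10 and 6 (classes, mimic). At 3-fold, 1 member was lower between stages in the control, 4 higher and 0 lower in the 32-cell mimic, 3 and 2 between control classes, and 2 and 1 between mimic classes. At 1.5-fold, 2 were higher and 2 lower in the 8-cell mimic, 4 lower in the 32-cell mimic and 6 lower in mimic TE-like cells. With the mean of both sides at 20 CPM, added after seeing the data, 5 were higher in the 32-cell mimic and 3 lower in control TE-like cells.

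For the 8-cell mimic, a mean over cells gave 1 higher, the mean of log values 1 higher and 2 lower, thinning 1 higher, the 2 control cells left without the run of 28 gave 1 higher and 3 lower, and cells with Xist above Y-linked transcripts 4 higher (Slc6a9, Slc6a15, Slc38a10 and Slc7a7). Stages of the mimic in such cells gave 4 lower. For control classes, a mean over cells and thinning each gave 3 higher, and leaving out the run of 15 cells 2 lower. In the 32-cell mimic, 3 were higher without the run of 18 cells and 1 was lower without the run of 12. Mimic classes gave 1 lower without the run of 18, 6 lower without that of 12, 2 higher without that of 9, and 1 lower with classes set by marker score. With such classes, added after seeing the data, 4 members were lower in mimic than control ICM-like cells (2 before) and 1 in TE-like cells (2 before).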
